A study of Mus musculus with 32 samples.

Results

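Induced pluripotent stem cells (iPSC) obtained by chemical reprogramming with CD3254 were compared with the embryonic stem cell line R1 across all genes. The comparison takes the 2 libraries of CD-iPSC and the 2 libraries of R1, 4 of the 32 libraries in the series, from a table that also holds 2 DMSO-iPSC libraries and 2 libraries of mouse embryonic fibroblasts (MEF). The CD-iPSC libraries carry the cell line OG2X129, the genotype "CD addition" and the treatment "ciPSC reprogramming", and their cell type field names the embryonic fibroblasts they came from. The R1 libraries carry the cell type "R1 mESC", the genotype "mouse ESC" and mouse blastocyst as source, with no compound. DMSO-iPSC, whose titles read DMSP and whose genotype reads "DMSO addition", share line and treatment with CD-iPSC, and serve as the sister line. The MEF libraries carry the same line, cell type and treatment fields with the genotype "WT shRNA". The reprogramming medium held VPA, CHIR99021, 616452, Parnate, Forskolin, AM580 (a retinoic acid receptor agonist), EPZ004777, vitamin C and bFGF, with or without CD3254. The number of clones, passages, feeder cells and the medium in which established lines were kept were not stated, nor whether the 2 libraries of a group are separate cultures, so p-values measure only the spread between these libraries. Origin, genotype and culture history of the groups cannot be told apart.

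CD3254 is a synthetic agonist of the retinoid X receptor RXRα, a nuclear receptor that binds DNA with partners such as the retinoic acid, liver X and vitamin D receptors. Chemical reprogramming replaces the introduced transcription factors of classical iPSC derivation with small molecules, and the fibroblasts pass through an endoderm-like stage before the pluripotency network is activated. Mouse embryonic stem cells in the naive state are held by Oct4 (Pou5f1), Sox2 and Nanog together with LIF-STAT3 and Wnt inputs, while FGF-ERK and Nodal signalling favour the formative and primed states that precede differentiation. R1 is a widely used blastocyst-derived mouse line and serves as the pluripotent reference.

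Values are TPM, transcript abundances normalised for gene length and library, which sum to a fixed total in each library and keep no read depth, so the depth behind each value is unknown. Defining markers matched the labels in both groups. The 8 pluripotency markers summed to 6256 and 5551 TPM in CD-iPSC and 6165 and 6430.0 TPM in R1, against 0.491 and 0.700 TPM in MEF. The 8 fibroblast markers summed to 108 and 98.7 TPM in CD-iPSC, 88.8 and 95.1 TPM in R1 and 19862 and 19030.0 TPM in MEF. Lum, a dermal proteoglycan, was listed at 0 in both CD-iPSC libraries. The 6 XEN-like endoderm markers summed to 12.8 and 9.87 TPM in CD-iPSC and 12.4 and 13.3 TPM in R1. Fibroblast and endoderm markers were thus near the R1 level in CD-iPSC. In bulk RNA, fewer cells of a type and less RNA per cell cannot be told apart. Mitochondrially encoded genes took 8.87% and 14% of TPM in CD-iPSC and 13.4% and 11.9% in R1.

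The Oct4 RNA difference between CD-iPSC and R1 did not pass the test, while 16 of 23 naive pluripotency genes, 14 of 26 core pluripotency genes and 16 of 19 2-cell-like genes were lower in CD-iPSC. Glycolysis and hypoxia genes were higher for 20 of 30. Of 17414 genes tested, 1295 were called higher in CD-iPSC than in R1 (7.44% of those tested) and 2839 lower (16.3%), with called meaning a Benjamini-Hochberg adjusted p under 0.05 in limma. Among the calls, 484 rose and 1133 fell by more than 1 on the log2(TPM + 1) scale, which understates changes of low genes. The median gene differed by -0.09. The excess of lower calls depends on scaling: 31.3% of calls were higher as deposited and 45.2% after median ratio scaling (1792 higher, 2173 lower), with 1293 and 2173 genes called the same way under both. Leaving out R1 replicate 1 left 517 higher and 1288 lower calls, and leaving out R1 replicate 2 left 451 and 1038.

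**Figure D1:**
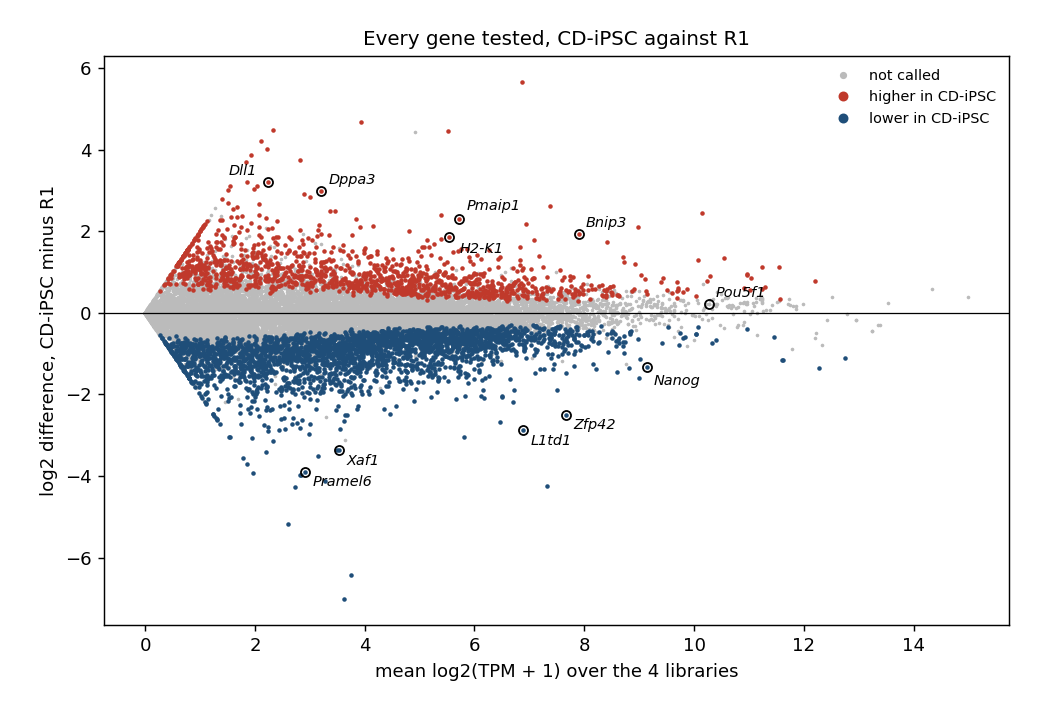
Each point is 1 of the 17414 genes tested, with its mean log2(TPM + 1) over the 4 CD-iPSC and R1 libraries on the horizontal axis and the log2 difference, CD-iPSC minus R1, on the vertical axis. Red and blue points are called higher and lower, grey points are not called, and genes described in the text are circled.

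Set beside the whole table, where 7.44% of genes were called higher and 16.3% lower, the gene lists spread widely. Some lay near these shares, with 16.0% lower for exosome genes and 15.2% for fibroblast genes. The counts given below for each list are to be read beside the shares of the whole table. Lack of overlap between groups, given below for single genes, is a description only. With 2 libraries in each group, libraries can lie apart without a true difference, and the share over all genes is not given. The share called lower reached 84.2% for 2-cell-like genes and 69.6% for naive pluripotency genes, and the share called higher reached 66.7% for glycolysis and hypoxia genes. Against the sister line DMSO-iPSC, 3486 genes were called higher (20.0%) and 3218 lower (18.5%) in CD-iPSC, and both comparisons use the same CD-iPSC libraries.

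**Figure D2:**
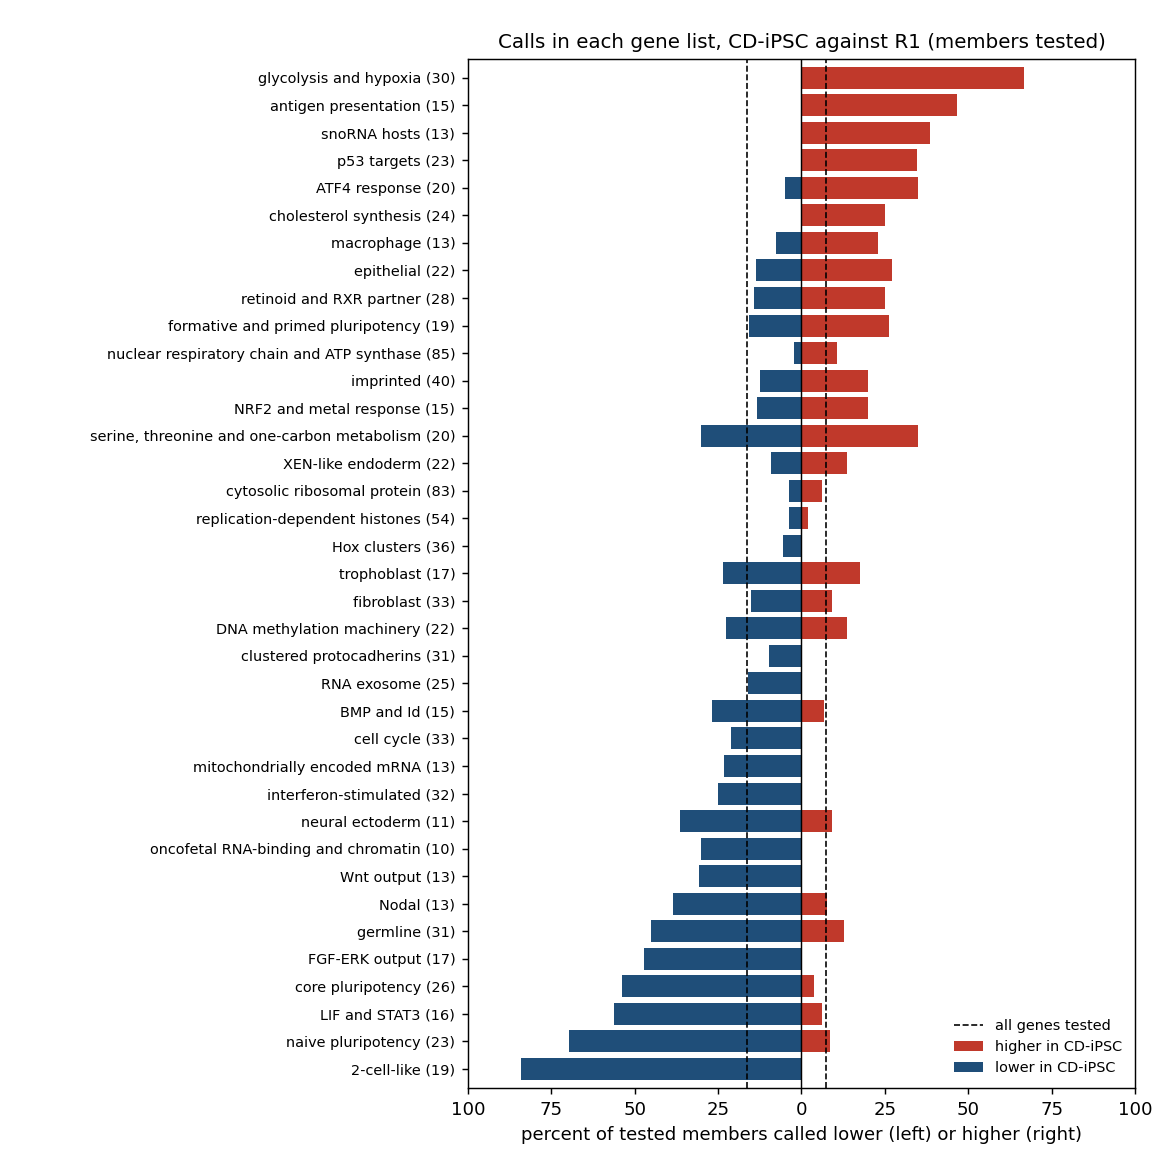
Horizontal bars give the percent of tested members of each gene list called lower (left, blue) or higher (right, red) in CD-iPSC against R1, for lists with 10 or more members tested (number in brackets). Dashed lines mark the background over all genes, 16.3% lower and 7.44% higher. Glycolysis and hypoxia stand at the top and 2-cell-like and naive pluripotency genes at the bottom.

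Among core pluripotency genes Oct4 RNA was not called different from R1, while Nanog, Sox2 and Rex1 RNA were lower. Pou5f1, which encodes Oct4 (chr17:35506018-35510772, GRCm38), stood at 1532 and 1138 TPM in the CD-iPSC libraries and 1087 and 1198 TPM in the R1 libraries. The libraries overlapped and the difference of 0.21 ± 0.15 (SE), adjusted p = 0.367, did not pass the test, though without CD-iPSC replicate 2 it did (0.42, adjusted p = 0.0493). Nanog, the homeobox factor of the naive network (chr6:122707489-122714633), stood at 349.8 and 359 TPM in the CD-iPSC libraries and 882 and 902 TPM in the R1 libraries. Both CD-iPSC libraries were below both R1 libraries, a log2 difference of -1.33 ± 0.13 (SE), adjusted p = 0.00119, and below the DMSO-iPSC libraries at 618 and 578 TPM (-0.75 ± 0.13, adjusted p = 0.00434). With a pseudocount of 0.1 in place of 1 the Nanog call against R1 was lost (adjusted p = 0.136) at a difference of -1.33. Zfp42 (Rex1), a zinc finger marker of undifferentiated cells (chr8:43295063-43306980), stood at 88.9 and 80.8 TPM in the CD-iPSC libraries and 488 and 482 TPM in the R1 libraries. The R1 level was several times higher, a log2 difference of -2.50 ± 0.09 (SE), adjusted p = 9.75e-05, and DMSO-iPSC held 315 and 328 TPM.

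Sox2, the partner of Oct4, stood at 203 and 167 TPM in the CD-iPSC libraries and 288 and 320.3 TPM in the R1 libraries, without overlap. Its difference of -0.72 ± 0.12 (SE), adjusted p = 0.00775, was lost without R1 replicate 2 (-0.65, adjusted p = 0.0638). L1td1, an RNA-binding protein derived from a LINE-1 reading frame, stood at 48 and 37.7 TPM in the CD-iPSC libraries and 327 and 314 TPM in the R1 libraries. That was a log2 difference of -2.88 ± 0.13 (SE), adjusted p = 0.000156, and DMSO-iPSC were on the R1 side at 379.7 and 357 TPM. Dppa2, a chromatin-associated developmental pluripotency gene, fell to 29 and 38.6 TPM from 149.9 and 132 (-2.04 ± 0.15 SE, adjusted p = 0.000567). Neither gene's libraries overlapped between groups. Dppa5a, an abundant RNA-binding protein of stem cells, was the single core gene called higher, at 3508 and 3329.5 TPM in the CD-iPSC libraries and 2706 and 2709 TPM in the R1 libraries (0.34 ± 0.08 SE, adjusted p = 0.0277). The Dppa5a call was lost after quantile normalization, where the difference was 0.19 (adjusted p = 0.239). A fit on the 4 libraries alone (adjusted p = 0.166) and a replicate block (adjusted p = 0.0629) lost it too, as did leaving out either R1 library (0.34 each).

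Of 26 core genes tested, 1 was called higher and 14 lower, with a median log2 difference of -0.53 against -0.09 over all genes. The lower count was 9 without R1 replicate 2. Fgf4, the growth factor secreted by stem cells, was not called and stood at 127 and 125 TPM in the CD-iPSC libraries and 136 and 133 TPM in the R1 libraries. Lin28a, which blocks let-7 maturation, was not called either, at 107 and 116 TPM in the CD-iPSC libraries and 102 and 103 TPM in the R1 libraries. Against DMSO-iPSC, 4 core genes were called higher and 16 lower, beside 20.0% and 18.5% of all genes.

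The start-site regions of core genes were searched for the octamer-type letters bound by Oct4, ATGCAAA on either strand, in the 250 bases before the RefSeq start (GRCm38.p6). Windows were found for 18 of the 26 core genes. Nanog, Sox2 and Zfp42 held the letters, 3 genes in all (16.7%), against 4.12% of all 32851 windows. A match is a description of the letters and not of binding. In the naive list 0 of 14 windows held them. Nanog and Zfp42 are printed as lower core genes whose windows hold a match, with the matching letters in capitals.
Nanog, chr6:122707239-122707488, plus strand: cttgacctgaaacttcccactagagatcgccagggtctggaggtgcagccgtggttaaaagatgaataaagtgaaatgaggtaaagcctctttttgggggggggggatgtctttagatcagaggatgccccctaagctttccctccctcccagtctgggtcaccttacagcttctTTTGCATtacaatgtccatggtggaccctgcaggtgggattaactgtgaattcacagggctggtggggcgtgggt
Zfp42, chr8:43307010-43307259, minus strand: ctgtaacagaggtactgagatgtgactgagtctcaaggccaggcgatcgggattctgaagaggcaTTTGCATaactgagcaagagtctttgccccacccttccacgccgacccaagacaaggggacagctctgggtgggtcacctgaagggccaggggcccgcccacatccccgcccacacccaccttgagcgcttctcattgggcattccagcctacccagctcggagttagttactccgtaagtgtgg

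Most naive pluripotency genes tested were called lower in CD-iPSC. Of 24 genes listed 23 passed the filter on low values, and 16 were called lower and 2 higher, with a median of -0.95, and 14 to 16 members were called lower when any 1 library was left out. Klf5, a Krüppel-like factor of the naive network, stood at 44.6 and 51.2 TPM in the CD-iPSC libraries and 222 and 219.9 TPM in the R1 libraries (-2.19 ± 0.11 SE, adjusted p = 0.000156). Klf4, its LIF-responsive relative, stood at 38.4 and 27.9 TPM in the CD-iPSC libraries and 78.5 and 85.8 TPM in the R1 libraries (-1.30 ± 0.16 SE, adjusted p = 0.00269). Klf2, a factor of the ground state, stood at 45.7 and 32.6 TPM in the CD-iPSC libraries and 112 and 138 TPM in the R1 libraries (-1.66 ± 0.18 SE, adjusted p = 0.00167). None of the 3 overlapped between groups. DMSO-iPSC held 123 and 112 TPM of Klf5 and 90.3 and 94.6 TPM of Klf4.

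Manba, a lysosomal mannosidase used as a naive marker, fell from 114 and 115 TPM in R1 to 26.8 and 27.1 (-2.05 ± 0.09 SE, adjusted p = 0.000139). Zfp57, a zinc finger protein that keeps imprinted regions methylated, fell from 333 and 344 to 129 and 114 TPM (-1.47 ± 0.10 SE, adjusted p = 0.000387). Gbx2, a homeobox factor, and Nr0b1 (Dax1), a nuclear receptor, differed by -1.80 and -1.67 (adjusted p = 0.00156 and 0.000444). In all of these the CD-iPSC libraries lay below R1 without overlap. The Gbx2 call was lost with a pseudocount of 0.1 (-2.02, adjusted p = 0.0631). Esrrb, an orphan nuclear receptor, showed a smaller difference, at 149 and 136 TPM in the CD-iPSC libraries and 239.9 and 316 TPM in the R1 libraries (-0.95 ± 0.16 SE, adjusted p = 0.00809). Tfcp2l1, a STAT3 target, stood at 44 and 50.7 TPM in the CD-iPSC libraries and 80.6 and 76.2 TPM in the R1 libraries (-0.72 ± 0.12 SE, adjusted p = 0.00711). The cadherin Cdh1 was not called, at 149 and 127 TPM in CD-iPSC and 125 and 128 in R1, nor was the adhesion molecule Pecam1, at 84.3 and 79.1 TPM in CD-iPSC and 75.3 and 74.6 in R1. The Tfcp2l1 call was lost without R1 replicate 1 (adjusted p = 0.056). The Esrrb call was lost without R1 replicate 2 (adjusted p = 0.0538).

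Dppa3 (Stella), a maternal factor that protects DNA methylation in the early embryo, went the other way. It stood at 28.3 and 21.8 TPM in the CD-iPSC libraries and 3.22 and 1.55 TPM in the R1 libraries (2.98 ± 0.27 SE, adjusted p = 0.00103). DMSO-iPSC held 26.7 and 21.2 TPM, and the difference between the sister lines was 0.06 ± 0.27, adjusted p = 0.896, which did not pass the test. Aire, the autoimmune regulator that is also transcribed in stem cells, was the other naive-list gene called higher, at 56.2 and 48.1 TPM in the CD-iPSC libraries and 25.8 and 30.3 TPM in the R1 libraries (0.87 ± 0.15 SE, adjusted p = 0.00783). The Aire call was lost without R1 replicate 1 (adjusted p = 0.0572).

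**Figure D3:**
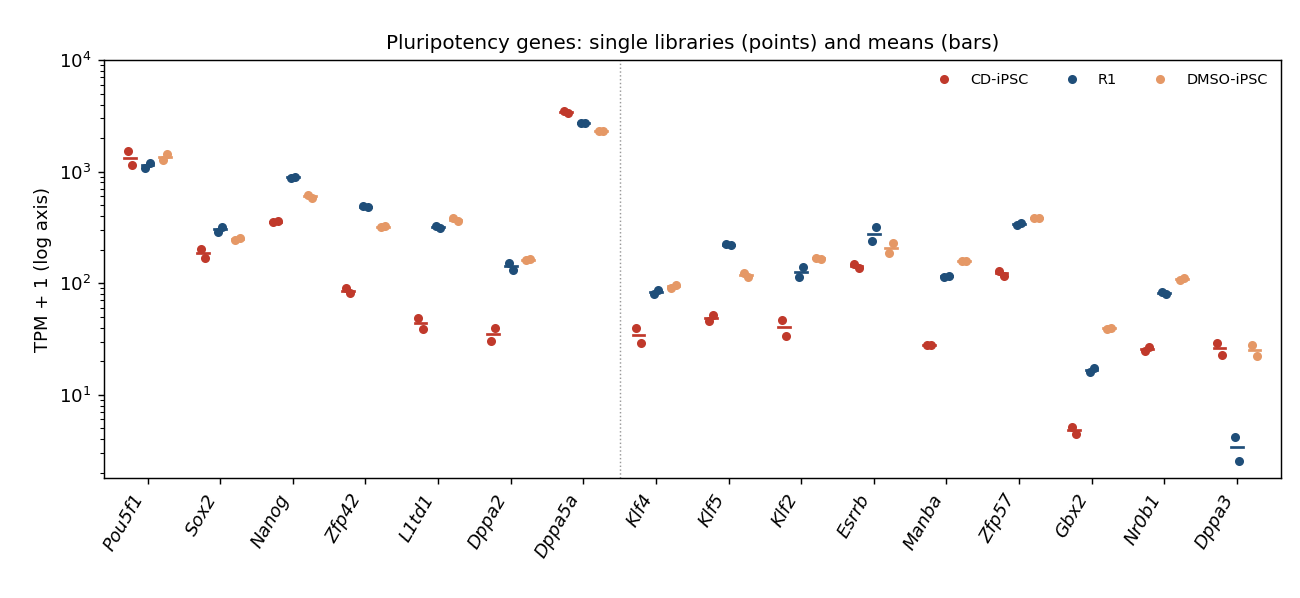
TPM + 1 on a log axis for 7 core genes (left of the dotted line) and 9 naive genes (right) in each CD-iPSC, R1 and DMSO-iPSC library, with bars at the group means of 2 libraries. Pou5f1 points mix between groups, Nanog, Zfp42, L1td1 and the Klf genes lie lower in CD-iPSC, and Dppa3 is low in R1 and not in either iPSC line.

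Genes of the formative and primed states did not move one way: of 19 tested, 5 were called higher and 3 lower, at a median of 0.16. The lower count was 1 without R1 replicate 2. Zic2 and Sox11, transcription factors of the early epiblast and neural plate, rose. Zic2 stood at 13 and 11.9 TPM in the CD-iPSC libraries and 4.47 and 4.33 TPM in the R1 libraries (1.31 ± 0.15 SE, adjusted p = 0.00222). Sox11 stood at 4.62 and 5.08 TPM in the CD-iPSC libraries and 1.14 and 1.29 TPM in the R1 libraries (1.40 ± 0.17 SE, adjusted p = 0.00279). Tcf15, a bHLH factor marking cells that exit the naive state, fell to 23.8 and 18.9 from 54.3 and 65.7 TPM (-1.45 ± 0.16 SE, adjusted p = 0.00173). Myc, the growth-promoting transcription factor, was listed at 1.62 and 0 TPM in CD-iPSC, 6.39 and 8.36 TPM in R1 and 39.8 and 37.4 TPM in DMSO-iPSC. DMSO-iPSC held 18.6 and 17.5 TPM of Zic2 and 3.15 and 3.53 TPM of Sox11, above R1 for both genes. The Myc call was lost without R1 replicate 2 (adjusted p = 0.0562).

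Transcripts of the rare 2-cell-like state of stem cell cultures were lower in CD-iPSC. Of 19 genes tested, 16 were called lower and 0 higher, with a median of -1.44. Zscan4c, a telomere-associated member of the Zscan4 cluster, stood at 10.5 and 11.7 TPM in the CD-iPSC libraries and 38.5 and 37.5 TPM in the R1 libraries (-1.69 ± 0.13 SE, adjusted p = 0.000576). Zscan4d, a neighbouring copy, stood at 5.09 and 6.67 TPM in the CD-iPSC libraries and 24.9 and 26.3 TPM in the R1 libraries (-1.96 ± 0.16 SE, adjusted p = 0.00077). For Zscan4c the order of levels was DMSO-iPSC (71.6 and 73.6 TPM), R1, CD-iPSC. The Zscan4, Usp17l and Tcstv genes are near-identical copies, so their single values are uncertain and their calls are not independent. The groups could differ in the number of cells in this state or in RNA per cell, which bulk values cannot tell apart.

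Germline genes were called lower more often than higher, 14 against 4 of 31 (median -0.67). The lower count was 9 without R1 replicate 1 or R1 replicate 2, and the higher count was 1 without R1 replicate 2. Tuba3a, a testis tubulin with the near-identical copy Tuba3b, fell from 214 and 232 to 37.1 and 31.2 TPM (-2.68 ± 0.13 SE, adjusted p = 0.000174). Dazl, a germ cell RNA-binding protein, stood at 91.8 and 139 TPM in the CD-iPSC libraries and 283 and 258 TPM in the R1 libraries (-1.25 ± 0.19 SE, adjusted p = 0.00529). Dmc1, the meiotic recombinase, rose from 7.96 and 7.70 to 20.0 and 24.5 TPM (1.39 ± 0.17 SE, adjusted p = 0.00282). Against DMSO-iPSC the germline list gave 5 higher and 9 lower calls, at a median of 0.01.

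Several feedback inhibitors induced by FGF-ERK signalling were called lower in CD-iPSC. Spry4, a Sprouty inhibitor of receptor tyrosine kinase signalling, stood at 1.69 and 1.27 TPM in the CD-iPSC libraries and 11.7 and 10.6 TPM in the R1 libraries. Both CD-iPSC libraries were below both R1 libraries (-2.30 ± 0.17 SE, adjusted p = 0.000554) and far below DMSO-iPSC at 31.2 and 33 TPM (-3.74 ± 0.17, adjusted p = 0.000114). Spry2, its relative, fell from 69.2 and 72.1 to 21.7 and 21.4 TPM (-1.67 ± 0.10 SE, adjusted p = 0.00033). The ERK phosphatase Dusp6 fell from 18.8 and 21 to 5.17 and 5.52 TPM (-1.72 ± 0.13 SE, adjusted p = 0.000554). Etv5, an ETS factor downstream of ERK, fell by 1.26 on the log2 scale (adjusted p = 0.000928). In all 8 of 17 members were called lower and 0 higher (median -0.45), and the lower count was 5 without R1 replicate 1 or R1 replicate 2.

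Targets of LIF and STAT3 were called lower for 9 and higher for 1 of 16 (median -0.69). Sgk1, a serum- and stress-induced kinase, stood at 85.7 and 99.6 TPM in the CD-iPSC libraries and 342 and 355 TPM in the R1 libraries (-1.90 ± 0.11 SE, adjusted p = 0.000294). Bcl3, a nuclear IκB protein, stood at 24.9 and 23.5 TPM in the CD-iPSC libraries and 67.6 and 82 TPM in the R1 libraries (-1.58 ± 0.13 SE, adjusted p = 0.000831). Socs3, the feedback inhibitor of the LIF receptor, fell from 121 and 140.5 to 79.3 and 63.1 TPM (-0.87 ± 0.13 SE, adjusted p = 0.00562), and the difference from DMSO-iPSC at 74.2 and 77.3 TPM did not pass the test (-0.10 ± 0.13, adjusted p = 0.614). The higher member was Icam1, an adhesion molecule, at 125 and 105 TPM in the CD-iPSC libraries and 76.1 and 81.1 TPM in the R1 libraries (0.54 ± 0.11 SE, adjusted p = 0.0157). The Icam1 call was lost without R1 replicate 1 (adjusted p = 0.0952) or without R1 replicate 2 (adjusted p = 0.0696).

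Nodal pathway genes were called lower for 5 and higher for 1 of 13 members (median -0.18), and the higher count was 0 without R1 replicate 1. Lefty2, a secreted Nodal antagonist and target, stood at 7.74 and 8.87 TPM in the CD-iPSC libraries and 48.4 and 53.9 TPM in the R1 libraries (-2.49 ± 0.14 SE, adjusted p = 0.00026). The ligand Nodal stood at 19.1 and 16.4 TPM in the CD-iPSC libraries and 33.5 and 37.6 TPM in the R1 libraries (-0.97 ± 0.14 SE, adjusted p = 0.00472). Its convertase Pcsk6 stood at 15.6 and 14.1 TPM in CD-iPSC and 35.3 and 39 in R1 (-1.27 ± 0.12 SE, adjusted p = 0.0012). For each of the 3, both CD-iPSC libraries were below both R1 libraries, as they were for Lefty1, a second antagonist, at 4.15 and 4.71 TPM in CD-iPSC and 13.2 and 17.4 in R1 (-1.58 ± 0.18 SE, adjusted p = 0.00204). In the BMP list, 4 of 15 were lower and 1 higher, at a median of -0.03, and the higher count was 0 when any 1 of the 4 libraries was left out. Id1, an inhibitor of bHLH factors, fell from 49.7 and 48 to 15.7 and 10.2 TPM (-1.86 ± 0.24 SE, adjusted p = 0.00308). Smad7, an inhibitor shared by the BMP and Nodal routes, fell from 31.4 and 29.4 to 9.62 and 10.9 TPM (-1.48 ± 0.12 SE, adjusted p = 0.000666). Bmp4, a BMP ligand, fell from 21.1 and 23.7 to 9.77 and 6.46 TPM (-1.38 ± 0.18 SE, adjusted p = 0.00346).

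Of 13 Wnt targets 4 were called lower and 0 higher, with a median of -0.03, and the lower count was 2 without CD-iPSC replicate 2, 1 without R1 replicate 2. Notum, which inactivates Wnt ligands, stood at 0.763 and 1.59 TPM in the CD-iPSC libraries and 8.0 and 5.83 TPM in the R1 libraries (-1.87 ± 0.27 SE, adjusted p = 0.00471), a call lost with a pseudocount of 0.1 (-2.52, adjusted p = 0.0528). Axin2, the classical feedback target, stood at 3.03 and 1.74 TPM in the CD-iPSC libraries and 4.77 and 7.27 TPM in the R1 libraries (-1.06 ± 0.27 SE, adjusted p = 0.031). Its call was lost with no filter (adjusted p = 0.0656), in a fit on the 4 libraries alone (adjusted p = 0.0746) and with a replicate block (adjusted p = 0.0522). It was also lost without CD-iPSC replicate 2 (-0.78) or R1 replicate 2 (-0.80).

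**Figure D4:**
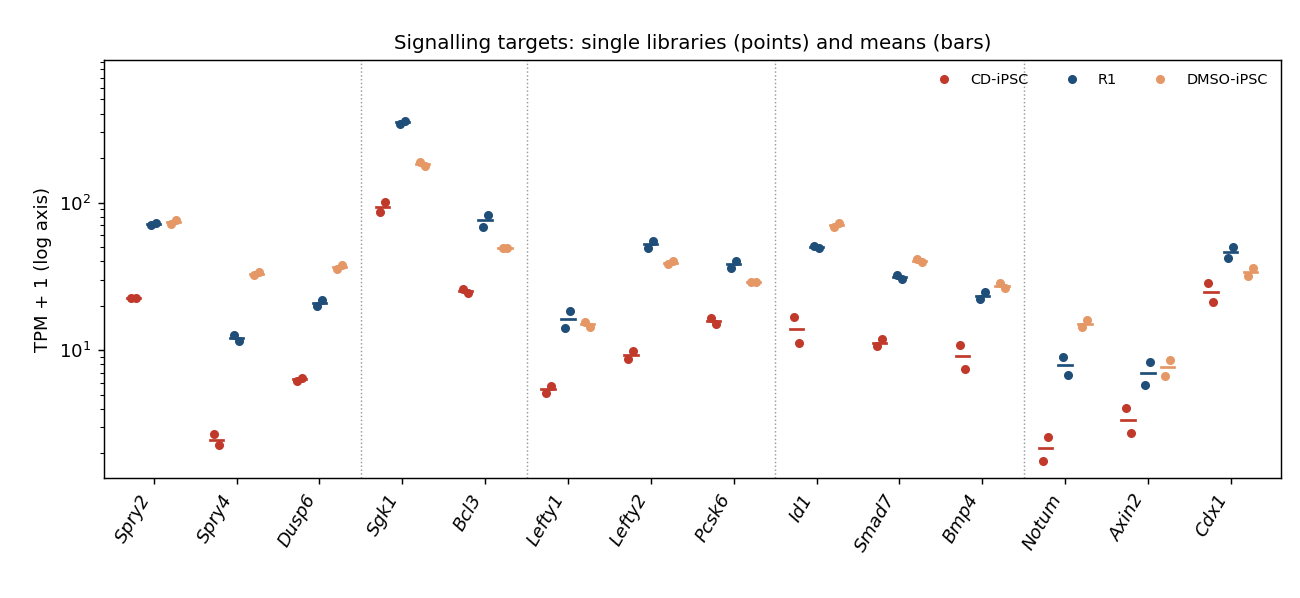
TPM + 1 on a log axis for selected genes of FGF-ERK, LIF, Nodal, BMP and Wnt signalling, from left to right between dotted lines. Each CD-iPSC, R1 and DMSO-iPSC library is shown, with bars at the means of 2 libraries. CD-iPSC points lie below R1 points for each gene drawn, with the narrowest gaps for Axin2 and Cdx1. The genes drawn do not represent their lists. Differences were above 0 for 5 and below 0 for 7 of 13 Wnt genes tested, and above for 5 and below for 10 of 15 BMP genes.

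Most glycolysis and hypoxia genes tested were called higher in CD-iPSC. Many of them are direct targets of hypoxia-inducible factor (HIF), which binds the letters ACGTG or GCGTG. These were searched on both strands of the 250 bases before the RefSeq start (GRCm38.p6), where a palindromic CACGTG counts on each strand. Windows were found for 27 of 30 tested members, and 21 of them (77.8%) held at least 1 match, against 38.6% of all 32851 windows. The share was the same in the 18 members called higher (14 with a match) and the 9 not called (7). Bnip3, Ldha and Pgk1 are shown as members that rose together, with the matching letters in capitals.
Bnip3, chr7:138909507-138909756, minus strand: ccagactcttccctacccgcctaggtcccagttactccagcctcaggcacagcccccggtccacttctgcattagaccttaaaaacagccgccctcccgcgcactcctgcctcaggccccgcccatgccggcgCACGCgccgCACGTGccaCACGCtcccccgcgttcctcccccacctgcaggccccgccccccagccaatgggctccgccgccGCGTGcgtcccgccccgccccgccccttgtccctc
Ldha, chr7:46845554-46845803, plus strand: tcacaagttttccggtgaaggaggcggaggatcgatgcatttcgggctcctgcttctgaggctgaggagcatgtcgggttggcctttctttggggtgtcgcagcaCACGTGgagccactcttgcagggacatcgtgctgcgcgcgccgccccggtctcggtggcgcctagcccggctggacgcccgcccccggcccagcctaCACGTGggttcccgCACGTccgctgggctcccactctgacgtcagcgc
Pgk1, chrX:106186850-106187099, plus strand: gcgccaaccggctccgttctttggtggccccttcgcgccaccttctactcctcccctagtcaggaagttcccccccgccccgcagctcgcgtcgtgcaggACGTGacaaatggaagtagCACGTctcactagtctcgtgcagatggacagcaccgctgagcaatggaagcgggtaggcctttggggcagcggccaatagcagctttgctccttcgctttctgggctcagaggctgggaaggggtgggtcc

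Bnip3, a HIF target that marks mitochondria for autophagy (chr7:138890836-138909519), stood at 421 and 512 TPM in the CD-iPSC libraries and 128 and 116 TPM in the R1 libraries. The CD-iPSC libraries lay above both R1 libraries (1.92 ± 0.12 SE, adjusted p = 0.000359) and further above DMSO-iPSC at 27.6 and 29.4 TPM (3.98 ± 0.12, adjusted p = 5.1e-05). Ndrg1, a stress-induced gene of the same response, stood at 67.1 and 61.7 TPM in the CD-iPSC libraries and 17.8 and 18.1 TPM in the R1 libraries (1.79 ± 0.11 SE, adjusted p = 0.00033), with 5.75 and 6.08 TPM in DMSO-iPSC. Glycolytic enzymes were higher as well. Pgk1, phosphoglycerate kinase, stood at 1819 and 1549.5 TPM in the CD-iPSC libraries and 667 and 704 TPM in the R1 libraries (1.29 ± 0.11 SE, adjusted p = 0.000871). Ldha, which makes lactate, stood at 2814 and 2700.4 TPM in the CD-iPSC libraries and 1473 and 1429 TPM in the R1 libraries (0.93 ± 0.10 SE, adjusted p = 0.00171). Aldoc, an aldolase, stood at 65.2 and 46.5 TPM in the CD-iPSC libraries and 12.5 and 13.7 TPM in the R1 libraries (2.00 ± 0.20 SE, adjusted p = 0.00131). Groups did not overlap for any of these 5 genes, and in each the order of levels was CD-iPSC, R1, DMSO-iPSC.

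In the list as a whole 20 of 30 genes were called higher and 0 lower, at a median of 0.86, and 15 to 22 members were called higher when any 1 library was left out. The glycolytic steps called included Gpi1, Pfkl, Pfkp, Aldoa, Tpi1, Pgam1, Eno1 and Pkm, with differences of 0.58 (Pgam1) to 1.20 (Gpi1). The prolyl hydroxylases P4ha1 and P4ha2, which modify collagen, rose by 1.31 and 1.08. Not every HIF target rose: Vegfa, the angiogenic growth factor, stood at 53.7 and 55.4 TPM in the CD-iPSC libraries and 53 and 57.2 TPM in the R1 libraries. The glucose transporter Slc2a1 stood at 323 and 332 TPM in the CD-iPSC libraries and 315 and 323 TPM in the R1 libraries. Hk2 and Pdk1, a hexokinase and the kinase that shuts pyruvate dehydrogenase, differed by -0.35 and -0.31 (adjusted p = 0.0683 and 0.0558). Several of these enzymes have processed copies in the genome, and how reads were shared with them was not tested. Against DMSO-iPSC, 27 of the 30 were called higher and 1 lower. The Pgam1 call was lost without R1 replicate 2 (adjusted p = 0.0501). The P4ha2 call was lost without R1 replicate 2 (adjusted p = 0.0628). Hk2 was called lower without mitochondrial genes (adjusted p = 0.0429) or without CD-iPSC replicate 1 (adjusted p = 0.0336). Pdk1 was called lower without the filter (adjusted p = 0.0415) or without mitochondrial genes (adjusted p = 0.0472).

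**Figure D5:**
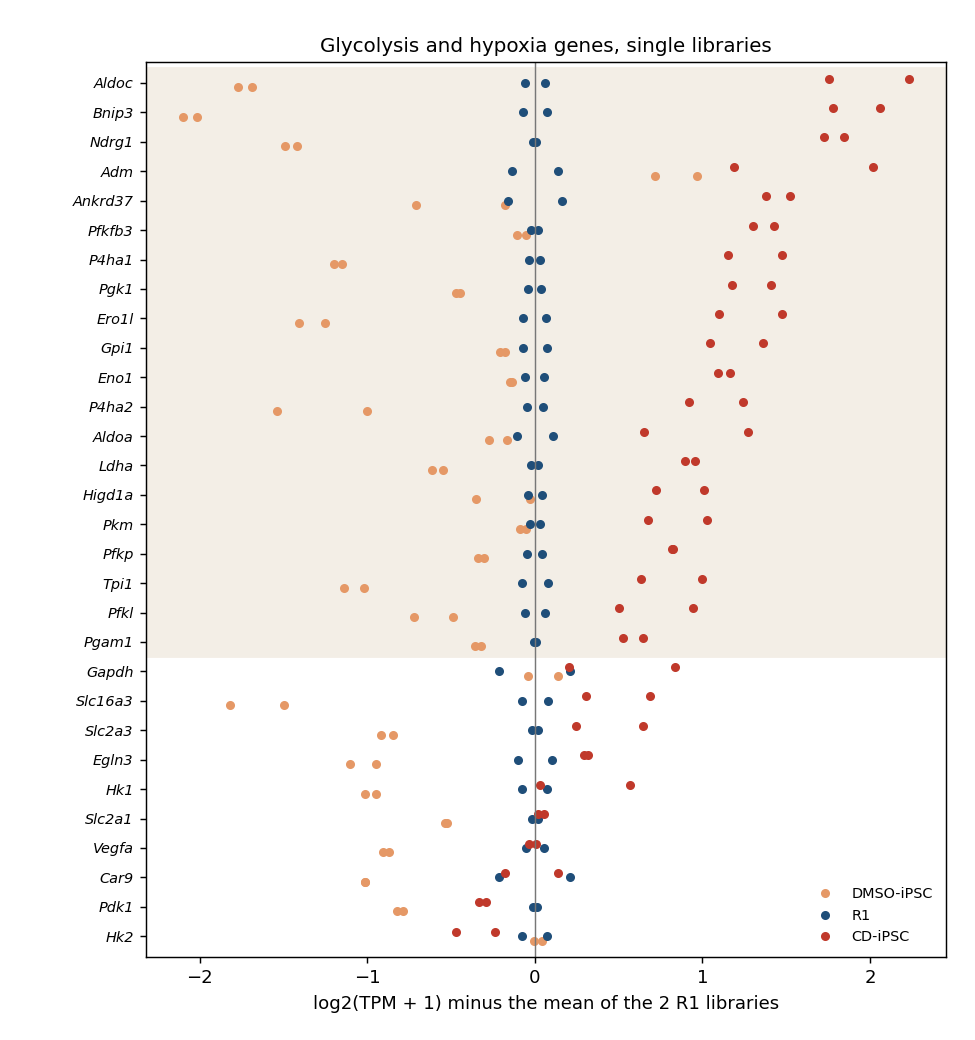
Each line is 1 of 30 glycolysis and hypoxia genes and each point 1 library, placed by its log2(TPM + 1) minus the mean of the 2 R1 libraries. Shaded lines are the 20 genes called higher in CD-iPSC than in R1. CD-iPSC points lie right of R1 there, DMSO-iPSC points lie at or left of R1 except for Adm, and Hk2 and Pdk1 lie at the bottom.

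Targets of the tumour suppressor p53 were called higher for 8 of 23 members and lower for 0 (median 0.30), and the higher count was 4 without R1 replicate 1 or R1 replicate 2. Pmaip1 (Noxa), a BH3-only death gene, stood at 110.1 and 122 TPM in the CD-iPSC libraries and 24.9 and 21 TPM in the R1 libraries (2.29 ± 0.12 SE, adjusted p = 0.000237), with DMSO-iPSC between them at 65 and 59.4 TPM. Tnfrsf10b, the TRAIL receptor, stood at 40.7 and 45 TPM in the CD-iPSC libraries and 16.8 and 17.4 TPM in the R1 libraries (1.28 ± 0.12 SE, adjusted p = 0.00113). Cdkn1a (p21), a cyclin-dependent kinase inhibitor, stood at 145 and 137 TPM in the CD-iPSC libraries and 95.5 and 97.1 TPM in the R1 libraries (0.54 ± 0.09 SE, adjusted p = 0.00785). None of the 3 overlapped between groups. Mdm2, the p53 ubiquitin ligase, and the cyclin Ccng1 were not called, with differences of 0.22 and 0.23 (adjusted p = 0.172 and 0.306). The Cdkn1a call was lost without R1 replicate 1 (adjusted p = 0.057) or without R1 replicate 2 (adjusted p = 0.0562).

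The ATF4 response, induced by amino acid shortage and endoplasmic reticulum stress, had 7 of 20 genes higher and 1 lower (median 0.56). The higher count was 11 without CD-iPSC replicate 2, 3 without R1 replicate 1. Ddit4, an mTOR inhibitor that HIF also induces, stood at 280.0 and 226 TPM in the CD-iPSC libraries and 66.1 and 79.7 TPM in the R1 libraries (1.78 ± 0.17 SE, adjusted p = 0.00106). Ddit3 (CHOP) stood at 68.2 and 49.7 TPM in the CD-iPSC libraries and 17.6 and 18.9 TPM in the R1 libraries (1.62 ± 0.22 SE, adjusted p = 0.0037). Vldlr, a lipoprotein receptor, stood at 6.67 and 7.89 TPM in the CD-iPSC libraries and 1.42 and 1.13 TPM in the R1 libraries (1.87 ± 0.20 SE, adjusted p = 0.00174). Amino acid genes of the list were not called higher. Asns, asparagine synthetase, stood at 395 and 422 TPM in the CD-iPSC libraries and 439.7 and 414 TPM in the R1 libraries, and was not called. Slc7a5, a leucine transporter, stood at 178 and 198 TPM in the CD-iPSC libraries and 196 and 197 TPM in the R1 libraries, and was not called. Slc7a3, an arginine transporter, was called lower with a difference of -0.69 (adjusted p = 0.0289). The Slc7a3 call was lost after median ratio scaling (adjusted p = 0.0753), without R1 replicate 1 (adjusted p = 0.112) or without R1 replicate 2 (adjusted p = 0.127).

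Of 15 presentation genes 7 were called higher and 0 lower (median 0.42), and the higher count was 4 without CD-iPSC replicate 1, 3 without R1 replicate 1 or R1 replicate 2. H2-K1, a classical class I heavy chain, stood at 89.5 and 85.7 TPM in the CD-iPSC libraries and 22.7 and 24.1 TPM in the R1 libraries (1.86 ± 0.10 SE, adjusted p = 0.000237), with DMSO-iPSC on the R1 side at 20.5 and 20.6 TPM. H2-Q4, a nonclassical chain, stood at 10.2 and 8.54 TPM in the CD-iPSC libraries and 0.936 and 1.17 TPM in the R1 libraries (2.33 ± 0.18 SE, adjusted p = 0.000628). Neither heavy chain overlapped between groups. Tap1, the peptide transporter, rose from 3.56 and 3.79 to 11 and 8.05 TPM (1.16 ± 0.24 SE, adjusted p = 0.016). B2m, the light chain, rose from 47.7 and 52.8 to 65.8 and 69.6 TPM (0.42 ± 0.10 SE, adjusted p = 0.0231). Class I genes differ in sequence between mouse strains and resemble each other, and the part of read assignment in these values was not tested. The Tap1 call was lost without CD-iPSC replicate 1 (adjusted p = 0.0547), without R1 replicate 1 (adjusted p = 0.0787) or without R1 replicate 2 (adjusted p = 0.0734). The B2m call was lost without CD-iPSC replicate 2 (adjusted p = 0.0584), without R1 replicate 1 (adjusted p = 0.14) or without R1 replicate 2 (adjusted p = 0.0713).

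Of 32 interferon-stimulated genes 0 were called higher and 8 lower (median -0.20), and the lower count was 5 without R1 replicate 1, 3 without R1 replicate 2. Rsad2, Mx2 and Ifih1 were listed at 0 in all CD-iPSC and R1 libraries and passed the filter through other groups of the table, so the list holds members without signal in either stem cell group. Xaf1, an interferon-induced binder of the apoptosis inhibitor XIAP, stood at 1.69 and 3.86 TPM in the CD-iPSC libraries and 37.5 and 35.2 TPM in the R1 libraries (-3.37 ± 0.26 SE, adjusted p = 0.000591), with 12 and 10.9 TPM in DMSO-iPSC. Ddx58 (RIG-I), a sensor of viral RNA, stood at 4.76 and 6.05 TPM in the CD-iPSC libraries and 10.7 and 13.3 TPM in the R1 libraries (-1.02 ± 0.15 SE, adjusted p = 0.00529), with 36.2 and 36.3 TPM in DMSO-iPSC. Oas1a, an oligoadenylate synthetase, stood at 8.82 and 7.83 TPM in the CD-iPSC libraries and 16.2 and 21.7 TPM in the R1 libraries (-1.09 ± 0.17 SE, adjusted p = 0.00629).

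Epithelial genes were mixed, 6 higher and 3 lower of 22 (median 0.33). The lower count was 1 without CD-iPSC replicate 2, 0 without R1 replicate 2. Cldn7, a tight junction claudin, stood at 31.1 and 31.1 TPM in the CD-iPSC libraries and 6.17 and 4.86 TPM in the R1 libraries (2.31 ± 0.17 SE, adjusted p = 0.000554). Cldn4, another claudin, stood at 53.6 and 50.2 TPM in the CD-iPSC libraries and 18.3 and 20.2 TPM in the R1 libraries (1.38 ± 0.13 SE, adjusted p = 0.00114). Cdh3, P-cadherin, stood at 7.03 and 6.23 TPM in the CD-iPSC libraries and 2.75 and 2.60 TPM in the R1 libraries (1.05 ± 0.14 SE, adjusted p = 0.00341). All 3 were higher without overlap. Jup, the junction protein plakoglobin, fell from 52.6 and 58.7 to 31.5 and 20.6 TPM (-1.09 ± 0.19 SE, adjusted p = 0.00785). Epcam was not called, at 109 and 95.8 TPM in CD-iPSC and 99.9 and 99.2 in R1. The Jup call was lost without R1 replicate 2 (adjusted p = 0.0583).

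Cholesterol synthesis genes were called higher for 6 of 24 and lower for 0 (median 0.20). The higher count was 2 without R1 replicate 1 or R1 replicate 2, and without CD-iPSC replicate 1, 3 genes were called lower. Dhcr7, the last reductase of the pathway, stood at 177 and 112 TPM in the CD-iPSC libraries and 50.1 and 58.5 TPM in the R1 libraries (1.36 ± 0.22 SE, adjusted p = 0.00673), and Insig1, the sterol sensor, at 164 and 196 TPM in the CD-iPSC libraries and 98.4 and 97.7 TPM in the R1 libraries (0.86 ± 0.11 SE, adjusted p = 0.00275). Against DMSO-iPSC 17 were higher and 1 lower.

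Serine, threonine and one-carbon genes split, 7 higher and 6 lower of 20. The higher count was 2 without R1 replicate 1 or R1 replicate 2, and the lower count was 3 without CD-iPSC replicate 2 or R1 replicate 1, 2 without R1 replicate 2. Tdh, the threonine dehydrogenase on which mouse stem cells rely, fell from 343 and 365 to 151 and 134 TPM (-1.31 ± 0.10 SE, adjusted p = 0.000576). Mat2a, which makes S-adenosylmethionine, fell from 273 and 257 to 119 and 135 TPM (-1.05 ± 0.10 SE, adjusted p = 0.00098). Phgdh, the first enzyme of serine synthesis, rose from 93.2 and 113 to 243 and 207 TPM (1.12 ± 0.13 SE, adjusted p = 0.0023).

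RXRα, the receptor CD3254 activates, had less RNA in CD-iPSC than in either other stem cell group. Rxra stood at 6.28 and 3.74 TPM in the CD-iPSC libraries and 11 and 9.38 TPM in the R1 libraries, lower without overlap (-0.93 ± 0.22 SE, adjusted p = 0.0229), and at 10.3 and 10.7 TPM in DMSO-iPSC (-0.97 ± 0.22, adjusted p = 0.012). The call against R1 was lost without R1 replicate 1 (-0.82, adjusted p = 0.117), without R1 replicate 2 (-1.03, adjusted p = 0.0756) and in a fit on the 4 libraries alone (-0.93, adjusted p = 0.0736). Of 28 retinoid and RXR partner genes 7 were higher and 4 lower (median 0.08), and the higher count was 3 without R1 replicate 1 and the lower count 2 without CD-iPSC replicate 2, 1 without R1 replicate 1, 0 without R1 replicate 2. Liver X receptor targets went both ways. Scd1, a fatty acid desaturase, stood at 104 and 109.8 TPM in the CD-iPSC libraries and 40.7 and 38.7 TPM in the R1 libraries (1.41 ± 0.14 SE, adjusted p = 0.00135). Abcg1, a sterol exporter, rose (1.06 ± 0.21 SE, adjusted p = 0.0137), and the exporter Abca1 fell (-0.81 ± 0.18 SE, adjusted p = 0.0188). Stra8, a retinoic acid target that starts meiosis, stood at 191 and 171 TPM in the CD-iPSC libraries and 98.7 and 100.1 TPM in the R1 libraries (0.86 ± 0.11 SE, adjusted p = 0.00287). Fabp3, a fatty acid carrier, stood at 350.3 and 194 TPM in the CD-iPSC libraries and 44.8 and 71.7 TPM in the R1 libraries (2.18 ± 0.30 SE, adjusted p = 0.0039). The Abca1 call was lost without CD-iPSC replicate 1 (adjusted p = 0.0529), without R1 replicate 1 (adjusted p = 0.054) or without R1 replicate 2 (adjusted p = 0.105). The Abcg1 call was lost without R1 replicate 1 (adjusted p = 0.0775).

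The RNA exosome, which degrades RNA from its 3′ end, is also named in the series title. Exosc3, a cap subunit, stood at 49.2 and 38.2 TPM in the CD-iPSC libraries and 54.6 and 72.6 TPM in the R1 libraries, without overlap but not called (-0.53 ± 0.19 SE, adjusted p = 0.0929). Of 25 exosome and cofactor genes 4 were called lower (16.0%, beside 16.3% of all genes) and 0 higher (beside 7.44%). The median was -0.11, against -0.09 over all genes. The lower share of the list was thus that of the whole table, and the count fell when some single libraries were left out. Dis3, the catalytic nuclease, stood at 68.5 and 75.8 TPM in the CD-iPSC libraries and 131 and 126 TPM in the R1 libraries (-0.83 ± 0.10 SE, adjusted p = 0.00296), with 61.2 and 58.8 TPM in DMSO-iPSC. Exosc4, a ring subunit, stood at 12.2 and 10.3 TPM in the CD-iPSC libraries and 28.2 and 26.3 TPM in the R1 libraries (-1.21 ± 0.18 SE, adjusted p = 0.00501).

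Imprinted genes were called higher for 8 and lower for 5 of 40 (median -0.03). In this list the higher count was 4 without CD-iPSC replicate 2 or R1 replicate 1 or R1 replicate 2, and the lower count was 1 without R1 replicate 1, 2 without R1 replicate 2. Snrpn, paternally expressed, stood at 157 and 152 TPM in the CD-iPSC libraries and 75.2 and 75.5 TPM in the R1 libraries (1.03 ± 0.10 SE, adjusted p = 0.00106). Phlda2, maternally expressed, stood at 71.1 and 59.5 TPM in the CD-iPSC libraries and 24.4 and 25.3 TPM in the R1 libraries (1.35 ± 0.17 SE, adjusted p = 0.00308). Ascl2, a maternally expressed trophoblast factor, stood at 16.3 and 12.3 TPM in the CD-iPSC libraries and 3.48 and 3.31 TPM in the R1 libraries (1.79 ± 0.20 SE, adjusted p = 0.00197). H19 and Meg3, noncoding RNAs often tested in iPSC, were not called. H19 stood at 22.7 and 18.2 TPM in the CD-iPSC libraries and 26.8 and 27.4 TPM in the R1 libraries. Meg3 stood at 59.4 and 44.5 TPM in the CD-iPSC libraries and 44.7 and 56.7 TPM in the R1 libraries. In DMSO-iPSC H19 stood at 117 and 122 TPM, and the difference between the sister lines was -2.50 ± 0.13, adjusted p = 0.000125. Bulk TPM do not tell the parental alleles apart. H19 was called lower without mitochondrial genes (adjusted p = 0.0335) or without CD-iPSC replicate 1 (adjusted p = 0.0203).

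Among 22 genes of DNA methylation and demethylation, 3 were higher and 5 lower. The higher count was 1 without CD-iPSC replicate 2 or R1 replicate 1 or R1 replicate 2 and the lower count 3 without R1 replicate 1, 2 without R1 replicate 2. Besides Zfp57 above, Gadd45b, a stress-induced gene, rose (1.28 ± 0.16 SE, adjusted p = 0.00279). Setdb1, the H3K9 methyltransferase that silences retroelements, fell (-0.90 ± 0.13 SE, adjusted p = 0.005), and so did its corepressor partner Trim28 (-0.61 ± 0.09 SE, adjusted p = 0.00554). Tet1, a 5-methylcytosine oxidase, fell from 38.3 and 35.9 to 22.6 and 19.8 TPM (-0.78 ± 0.14 SE, adjusted p = 0.00868). The Tet1 call was lost without R1 replicate 1 (adjusted p = 0.0619) or without R1 replicate 2 (adjusted p = 0.0512). The Trim28 call was lost without R1 replicate 2 (adjusted p = 0.053).

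Y-linked genes were present and Xist, the RNA that silences an X chromosome, was low in both groups. Xist stood at 0.605 and 0.685 TPM in the CD-iPSC libraries and 0.759 and 0.543 TPM in the R1 libraries. The Y-linked Ddx3y stood at 36.6 and 52.5 TPM in CD-iPSC and 37 and 31.3 in R1 and was not called. Uty stood at 11.3 and 11.7 TPM in CD-iPSC and 8.14 and 7.16 in R1, not called. Eif2s3y was called higher, at 102 and 132 TPM in CD-iPSC and 71.9 and 81.6 in R1 (0.59 ± 0.15 SE, adjusted p = 0.0309), and the call was lost without CD-iPSC replicate 2 (0.40, adjusted p = 0.0895), R1 replicate 1 (0.50, adjusted p = 0.156) or R1 replicate 2 (0.68, adjusted p = 0.0865). Uba1y was called lower, at 5.10 and 4.95 TPM in CD-iPSC and 9.70 and 11.4 in R1 (-0.93 ± 0.17 SE, adjusted p = 0.0101), a call lost without R1 replicate 2 (-0.83, adjusted p = 0.0672). Zfy1, Zfy2 and Kdm5d were not called. Across autosomes the median log2 difference ran from -0.16 (chromosome 6) to -0.02 (chromosome 12), and on the X it was 0. The X had 75 genes higher and 76 lower of 685 (10.9% and 11.1%, beside 7.44% and 16.3% of all genes). Ddx3y was called higher without CD-iPSC replicate 1 (adjusted p = 0.046). Uty was called higher after median ratio scaling (adjusted p = 0.0435) or after quantile normalization (adjusted p = 0.0338).

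Genes of other cell types were called in both directions. Of 33 fibroblast genes 3 were higher and 5 lower against R1, which became 7 and 3 after median ratio scaling, so the direction of the list is not fixed. When libraries were left out the higher count was 1 without CD-iPSC replicate 1 or R1 replicate 1, 0 without R1 replicate 2 and the lower count 3 without CD-iPSC replicate 2, 2 without R1 replicate 1, 1 without R1 replicate 2. Col1a1, the main fibrillar collagen, stood at 49 and 38.2 TPM in the CD-iPSC libraries and 33.6 and 34.7 TPM in the R1 libraries and at 7118 and 6515 TPM in MEF. Against DMSO-iPSC 26 fibroblast genes were called lower and 0 higher, with DMSO-iPSC at 104 and 100.1 TPM of Col1a1. Col1a1 was called higher after median ratio scaling (adjusted p = 0.0271), after quantile normalization (adjusted p = 0.0381) or without CD-iPSC replicate 2 (adjusted p = 0.0181).

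XEN-like endoderm genes were higher for 3 and lower for 2 of 22, the lower count being 1 without CD-iPSC replicate 2 or R1 replicate 1 or R1 replicate 2. Lamb1, a laminin chain, rose (0.84 ± 0.11 SE, adjusted p = 0.00308) and Lama1, another, fell (-1.04 ± 0.15 SE, adjusted p = 0.00485). Gata4 stood at 2.60 and 1.60 TPM in the CD-iPSC libraries and 1.30 and 1.76 TPM in the R1 libraries and Gata6 at 4.49 and 3.81 TPM in the CD-iPSC libraries and 6.28 and 5.94 TPM in the R1 libraries, neither called. Trophoblast genes were higher for 3 and lower for 4 of 17. Esx1, a placental homeobox gene, stood at 10.5 and 10.9 TPM in the CD-iPSC libraries and 2.77 and 1.78 TPM in the R1 libraries (1.85 ± 0.20 SE, adjusted p = 0.00169). Tead4, a trophectoderm factor, stood at 8.26 and 6.03 TPM in the CD-iPSC libraries and 18.1 and 18.1 TPM in the R1 libraries (-1.24 ± 0.19 SE, adjusted p = 0.00514). The lower trophoblast count was 2 without CD-iPSC replicate 1, 1 without R1 replicate 2. Neural genes were lower for 4 and higher for 1 of 11, the lower count being 1 without CD-iPSC replicate 2 or R1 replicate 2, 2 without R1 replicate 1. Sox1, a neural plate factor, stood at 0.277 and 0.260 TPM in the CD-iPSC libraries and 2.83 and 2.58 TPM in the R1 libraries (-1.55 ± 0.16 SE, adjusted p = 0.00152). Olig2, a motor neuron and glial factor, was listed at 0 in both R1 libraries, at 1.30 and 1.72 TPM in CD-iPSC and 5.61 and 6.22 TPM in DMSO-iPSC.

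Cell cycle genes were called lower for 7 of 33 (21.2%, beside 16.3% of all genes) and higher for 0 (median -0.21). After median ratio scaling 4 were lower and 2 higher. The lower count was 4 without CD-iPSC replicate 2, 2 without R1 replicate 1 or R1 replicate 2. Birc5 (survivin) stood at 141 and 136 TPM in the CD-iPSC libraries and 240.3 and 247 TPM in the R1 libraries (-0.81 ± 0.08 SE, adjusted p = 0.00145), and Ccne1, cyclin E1, at 138 and 134 TPM in the CD-iPSC libraries and 233 and 227 TPM in the R1 libraries (-0.75 ± 0.08 SE, adjusted p = 0.00182). Mitochondrially encoded mRNAs were lower for 3 of 13 and higher for 0, and the counts by direction changed when any 1 library was left out. Their sum was 77218 and 122540 TPM in the CD-iPSC libraries and 121910 and 108090 TPM in the R1 libraries. The sums thus overlapped, with CD-iPSC replicate 2 above both R1 libraries, and gave no fixed direction. Among the 13 members, 12 had a difference below 0 and 1 above, with a median of -0.48. mt-Cytb, cytochrome b, stood at 2745 and 3529.5 TPM in the CD-iPSC libraries and 8229 and 7599.5 TPM in the R1 libraries (-1.34 ± 0.19 SE, adjusted p = 0.00414). Nuclear respiratory chain genes were higher for 9 and lower for 2 of 85 (median 0.13), with higher counts of 1 without R1 replicate 1, 2 without R1 replicate 2. Ribosomal protein genes were higher for 5 and lower for 3 of 83 as deposited, and 18 and 3 after median ratio scaling. As deposited the higher count was 14 without CD-iPSC replicate 2, 2 without R1 replicate 1, 1 without R1 replicate 2, and the lower count was 5 without CD-iPSC replicate 1, 1 without R1 replicate 2.

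Single genes were ranked by their called difference in each direction, and several of them are members of the lists above. Pseudogenes, genes named by a Gm number or a Rik clone and genes overlapping between groups were left out of the ranking. A mean of at least 5 TPM in the higher group was required. The 10 protein-coding or long noncoding genes with the largest called rise were Apoa2, Apoc2, Dll1, Dppa3, Miip, AA467197, Pdpn, H2-Q4, Cldn7 and Pmaip1. Apoa2 and Apoc2, apolipoproteins of lipid transport, were listed at 0 in both R1 libraries (adjusted p = 0.000156 and 0.00219). In CD-iPSC Apoa2 stood at 19.1 and 16.3 TPM and Apoc2 at 12.8 and 11 TPM. Dll1, a Notch ligand, stood at 16.4 and 10.9 TPM in the CD-iPSC libraries and 0.656 and 0.460 TPM in the R1 libraries (3.21 ± 0.25 SE, adjusted p = 0.000652), and at 0.594 and 0.183 TPM in DMSO-iPSC (3.39 ± 0.25, adjusted p = 0.000261). Pdpn, the membrane glycoprotein podoplanin, stood at 95.3 and 94.6 TPM in the CD-iPSC libraries and 18.2 and 16.1 TPM in the R1 libraries (2.40 ± 0.11 SE, adjusted p = 0.000156), and at 29.8 and 33.6 TPM in DMSO-iPSC. Miip, an inhibitor of cell migration, stood at 23.2 and 18 TPM in the CD-iPSC libraries and 1.99 and 1.98 TPM in the R1 libraries (2.85 ± 0.20 SE, adjusted p = 0.000553). AA467197 stood at 6.49 and 6.0 TPM in the CD-iPSC libraries and 0 and 0.244 TPM in the R1 libraries (2.70 ± 0.19 SE, adjusted p = 0.000553).

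Apoa2, Miip and AA467197 stood at similar levels in both iPSC lines. DMSO-iPSC held 14.7 and 20.0 TPM of Apoa2, 21.1 and 19.9 TPM of Miip and 7.27 and 6.82 TPM of AA467197, and none passed the test between the iPSC lines (adjusted p = 0.923, 1 and 0.582). Dll1, Pdpn and Cldn7 differed from DMSO-iPSC as well as from R1. The part of strain, line and compound in either pattern was not tested.

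Under the same limits, the 10 largest called falls were those of Pramel6, Platr16, Xaf1, Fcgr2b, Tlx2, Tuba3b, Pramel7, L1td1, B4galnt4 and Msc. Pramel6 and Pramel7, members of a multicopy family active in the inner cell mass, are near-identical copies with uncertain single values. Pramel6 stood at 1.40 and 0.586 TPM in the CD-iPSC libraries and 23.2 and 34.3 TPM in the R1 libraries (-3.90 ± 0.26 SE, adjusted p = 0.000468). Pramel7 stood at 1.24 and 0.336 TPM in the CD-iPSC libraries and 12.9 and 11.1 TPM in the R1 libraries (-2.91 ± 0.26 SE, adjusted p = 0.000931). DMSO-iPSC held 60.7 and 52.2 TPM of Pramel6 (-4.88 ± 0.26, adjusted p = 0.000142). Lack of overlap between the groups was a condition of this ranking and not a result. Fcgr2b, an inhibitory Fc receptor, stood at 0.493 and 0.177 TPM in the CD-iPSC libraries and 8.42 and 12.2 TPM in the R1 libraries (-3.07 ± 0.22 SE, adjusted p = 0.000553). B4galnt4, a glycosyltransferase, stood at 3.50 and 3.28 TPM in the CD-iPSC libraries and 29.1 and 32.2 TPM in the R1 libraries (-2.85 ± 0.17 SE, adjusted p = 0.000295). Tuba3b, a tubulin with the near-identical copy Tuba3a, stood at 1.56 and 2.11 TPM in the CD-iPSC libraries and 21 and 21.1 TPM in the R1 libraries (-2.97 ± 0.17 SE, adjusted p = 0.000294).

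Tlx2, a homeobox gene, was listed at 0 in both CD-iPSC libraries against 7.30 and 7.22 TPM in R1 (adjusted p = 0.000738). Msc, the bHLH repressor musculin, was listed at 0.680 and 0 TPM in CD-iPSC against 7.74 and 7.53 TPM in R1 and 13.6 and 14.4 TPM in DMSO-iPSC (adjusted p = 0.00114). Platr16, a noncoding RNA of stem cells, stood at 0 and 11.2 TPM in CD-iPSC and 31.2 and 39.6 TPM in R1 (adjusted p = 0.0453), and the call was lost after median ratio scaling (adjusted p = 0.0545) and without R1 replicate 1 (0.134) or 2 (0.171). For genes listed at 0, a failed estimate and absent RNA cannot be told apart.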

How the data were processed

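RNA-seq TPM values for 8 libraries in 4 groups of 2 were used as deposited by the authors. Per the submitters' processing notes, fastp 0.20.1, HISAT2 2.1.0 and StringTie 2.0 were used with the mm10 build, and their options were not given in the sources used here. TPM keep no read depth, so no count test, interval or floor was possible. Of 55401 genes listed, 55141 identifiers were named from GENCODE M21 (GRCm38) and 260 had no name.

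Genes with at least 1 TPM in at least 2 of the 8 libraries were tested with limma 3.58.1 (R 4.3.3) on log2(TPM + 1), with a trended moderated variance from all 8 libraries, 2-sided, with Benjamini-Hochberg adjustment over 17414 genes and a threshold of 0.05. On simulated data of 16955 genes, 65 of 100 genes changed by 1 on the log2 scale were called in the right direction. Changes were planted in few genes, none of them low in R1. This share is therefore not the power for the comparison made here or for its low genes. Reads, other tables of the series and culture details were not analysed here. Genes named are a fixed set of 7, the 10 largest called differences in each direction, and the sex-linked genes. Up to 3 called members of each of 42 lists were named too. The 10 largest were taken among protein-coding and long noncoding genes without overlap between groups and at 5 TPM or more in the higher group. Symbols made of a Gm number or a Rik clone name were left out. Further list members were named after their values were seen. Members and lists were chosen with earlier results of these data known. Promoter sequences are from RefSeq (GRCm38.p6). Alternatives changed the pseudocount, filter, scaling, libraries and design. Some genes are not reported here.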

Additional observations from a re-analysis of the deposited data

How the results depend on the processing

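Groups of 2 libraries set the main limit, and TPM carry no depth by which to weigh low genes. Against R1 the direction of no named gene that was called reversed under any of 13 alternatives in which it was tested. Most were named for a small p or a large difference in the same data, so this was nearly fixed in advance. Of 147 genes named by rule 136 were called, and 97 of them kept the call under every setting in which they were tested. Not every gene was tested under each setting, with 131 compared under the filter at 5 TPM. The lost calls given above for single genes are not all that were lost under these settings. A fit on the 4 CD-iPSC and R1 libraries alone gave 680 higher and 1663 lower calls, with fewer samples behind the spread. Leaving out 1 library gave 451 to 1146 higher and 1038 to 2814 lower calls, the fewest without R1 replicate 2. Other settings stayed within 1.5 times: a pseudocount of 0.1 gave 1107 higher and 2639 lower, no filter 1109 and 2411, a filter at 5 TPM 1142 and 2620, quantile normalization 1847 and 2087, and median ratio scaling 1792 and 2173. Against DMSO-iPSC the counts stayed within 1.5 times under the 10 alternatives run for that comparison, none of which left out a DMSO-iPSC library. The replicate numbers pair no samples in the labels, and the correlation of replicate deviations was -0.125 between CD-iPSC and R1. A replicate block gave 992 higher and 2310 lower calls against R1 and 3161 and 2963 against DMSO-iPSC. With the R1 numbers crossed, a choice made after seeing the data, the block gave 1134 and 2525 calls against R1.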

Other observations

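Host genes of small nucleolar RNAs, noncoding transcripts whose introns hold the guides for rRNA modification, were called higher for 5 and lower for 0 of 13 members (median 0.50). The higher count was 3 without CD-iPSC replicate 1 or CD-iPSC replicate 2, 1 without R1 replicate 1 or R1 replicate 2. Snhg6 stood at 194 and 281 TPM in the CD-iPSC libraries and 91.3 and 85.9 TPM in the R1 libraries (1.39 ± 0.22 SE, adjusted p = 0.00651). The NRF2 and metal response list was mixed, with 3 higher and 2 lower of 15. Mt1, a zinc-binding metallothionein, stood at 604 and 637 TPM in the CD-iPSC libraries and 195 and 177 TPM in the R1 libraries (1.74 ± 0.15 SE, adjusted p = 0.000923). Gpx2, a glutathione peroxidase and NRF2 target, fell from 19.1 and 25 to 5.10 and 4.94 TPM (-1.92 ± 0.19 SE, adjusted p = 0.00127), and Srxn1, a sulfiredoxin, from 18 and 16.3 to 5.92 and 5.12 TPM (-1.48 ± 0.14 SE, adjusted p = 0.00106). Oncofetal RNA-binding and chromatin genes gave 0 higher and 3 lower of 10. Trim71, a let-7 target, and Igf2bp3, an RNA-binding protein, differed by -1.24 and -1.28 (adjusted p = 0.00173 and 0.00404). Clustered protocadherins gave 0 higher and 3 lower of 31, and 1 lower without CD-iPSC replicate 1 or R1 replicate 1.

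Among lists of other cell types, macrophage genes gave 3 higher and 1 lower of 13, endothelial genes 0 higher and 3 lower of 8, muscle genes 2 higher and 0 lower of 7 and mesendoderm genes 0 higher and 2 lower of 9. Leaving out 1 library moved these counts: the endothelial lower count was 1 without R1 replicate 1 and 0 without R1 replicate 2. The muscle higher count was 1 without CD-iPSC replicate 1 or R1 replicate 1 and 0 without R1 replicate 2. The mesendoderm lower count was 0 without CD-iPSC replicate 2 or R1 replicate 1 and 1 without R1 replicate 2. Lyz2, a lysozyme of myeloid cells, stood at 20.8 and 23.4 TPM in the CD-iPSC libraries and 10.7 and 10.8 TPM in the R1 libraries (0.97 ± 0.13 SE, adjusted p = 0.00338).

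Large differences were seen for several ribosomal and ferritin genes and gene models, chosen after their values were seen. Gm10260 stood at 976 and 705 TPM in the CD-iPSC libraries and 15.5 and 15.5 TPM in the R1 libraries, with 771 and 879 TPM in DMSO-iPSC and 630.3 and 698 TPM in MEF. Rpl34 stood at 1102 and 984 TPM in the CD-iPSC libraries and 227 and 261 TPM in the R1 libraries. Rps18-ps3 stood at 256 and 177 TPM in the CD-iPSC libraries and 7.34 and 10.3 TPM in the R1 libraries, and Gm15772 at 2577 and 2681 TPM in the CD-iPSC libraries and 518 and 452 TPM in the R1 libraries. Gm12164 went the other way, at 0.0180 and 0.140 TPM in the CD-iPSC libraries and 119.8 and 159.7 TPM in the R1 libraries. Among ferritin light chain copies, Ftl1-ps2 stood at 0.0809 and 0.947 TPM in the CD-iPSC libraries and 112 and 135 TPM in the R1 libraries and Ftl2-ps at 46.2 and 27.5 TPM in the CD-iPSC libraries and 623 and 781 TPM in the R1 libraries, while Ftl1 itself stood at 5592 and 3427 TPM in the CD-iPSC libraries and 1855 and 2209 TPM in the R1 libraries. How reads were assigned among copies was not tested.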
